A study of Mus musculus with 14 samples.

Results

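The comparison is between 2 libraries of imiquimod-treated mouse skin in which Nedd8 was to be deleted from keratinocytes and 2 libraries of imiquimod-treated skin from floxed mice without the recombinase, 4 of the 14 libraries in the series. They were chosen by their genotype and treatment labels and are described across all 16027 genes that passed a filter on low counts, of 56953 in the table. The knockout group carried NEDD8fl/fl, with both copies of Nedd8 flanked by recombinase sites, together with K14-CreERT, a tamoxifen-type inducible Cre driven by the promoter of the basal keratinocyte keratin K14. Cells outside the K14 lineage therefore keep the gene. The Cre-negative group carried NEDD8fl/fl and no K14-CreERT. Both groups received Aldara, a cream with 5% imiquimod, every day from day 0 to day 7, and knockout mice were induced on 5 days beforehand. No induction is given for Cre-negative mice, so the inducing treatment and the deletion cannot be told apart. The cream went on shaved backs or right ears, and the labels do not say which site a library came from. Age is not given in the sources used here. The other groups used below were wild-type C57BL/6J skin with imiquimod (2 libraries) and knockout and Cre-negative skin labelled DMSO (3 libraries each). By its title, the series asks what NEDD8 and the related modifier SUMO2 do in epithelia at rest, in repair and in inflammation.

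NEDD8 is a ubiquitin-like protein whose attachment to cullins switches on cullin-RING ubiquitin ligases, which mark many short-lived proteins for destruction, among them the antioxidant factor NRF2 and the NF-kB inhibitor IkB-alpha. Imiquimod activates Toll-like receptor 7 and drives a psoriasis-like inflammation in mouse skin, with IL-23 and IL-17 from immune cells, IL-36 and antimicrobial peptides from keratinocytes, and an influx of neutrophils. Keratinocytes in such skin change from the keratins of resting suprabasal layers to those of wounded epidermis.

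RNA was counted at the 3' ends of transcripts, so a count compares 1 gene between libraries and not 2 genes with each other. Total counts were 13149797 and 10068739 in the knockout libraries and 7735269 and 20865337 in the Cre-negative libraries. The row for 18S ribosomal RNA took 6.73% to 19.1% of the counts, with the highest share in Cre-negative library 2. Ranked across the genes tested, the 2 knockout libraries correlated at a Spearman coefficient of 0.955, the 2 Cre-negative libraries at 0.952, and pairs from different groups at 0.840 to 0.895. Nothing in the labels says that the libraries came from separate animals, so p-values measure only the spread between samples. All 4 libraries held 943 to 2008 counts of Y-linked genes and at most 10 of Xist, so both groups came from males. Levels below are CPM, counts scaled to a common library size, given in the order of the replicate numbers.

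With imiquimod, knockout skin differed from Cre-negative skin in 2866 genes at an adjusted p below 0.05, which is 17.9% of those tested. Of these, 1852 genes (11.6%) were higher and 1014 (6.33%) were lower in the knockout, and 1848 of the 2866 differed by more than 4-fold. Of 27 neutrophil markers 20 were higher and 2 lower, of 22 matrix proteases and inhibitors 14 were higher and 0 lower, of 35 NRF2 targets 20 were higher and 1 lower, and of 27 chemokines 11 were higher and 1 lower. Of 20 suprabasal keratins and early differentiation genes 14 were lower and 0 higher, and of 36 cornified envelope genes 24 were lower and 0 higher. Of 26 barrier lipid enzymes 10 were lower and 1 higher, the same counts as among 26 sebaceous lipid genes. The number of calls was 796 without knockout library 1, 1497 without Cre-negative library 1 and 1477 without Cre-negative library 2. List counts given below with a library left out are to be read beside these totals. When libraries were scaled by total count alone, the median of all genes moved from 0.02 to 0.42 on the log2 scale and the calls divided into 2443 higher and 496 lower.

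**Figure D1:**
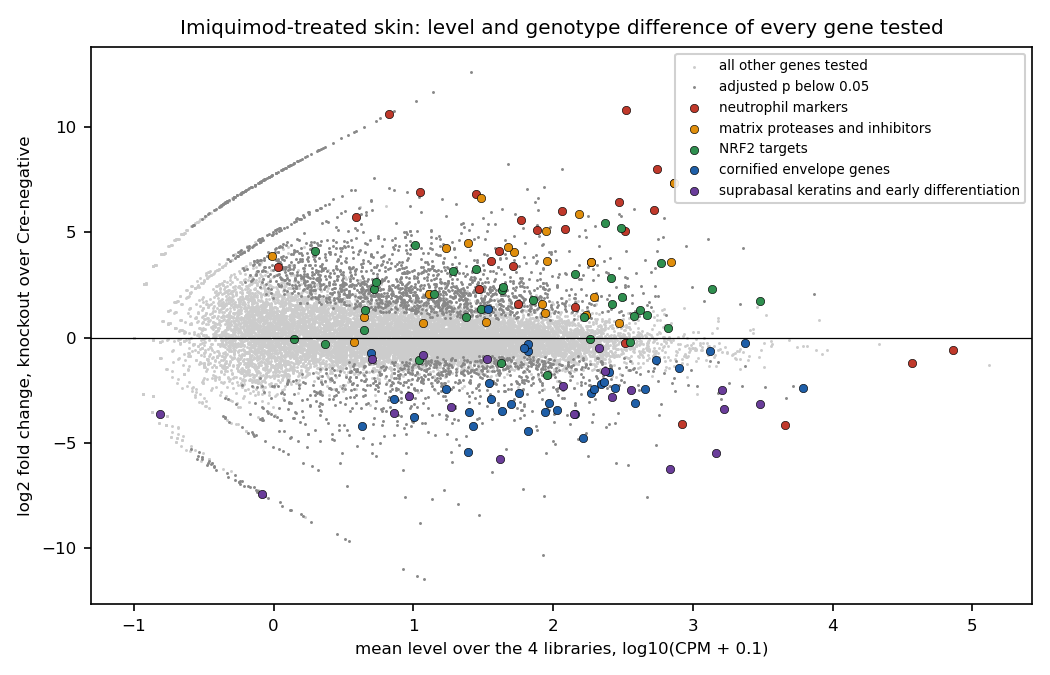
Each point is 1 of the 16027 genes tested, with its mean level over the 4 imiquimod libraries on a log10 axis and its log2 fold change of knockout over Cre-negative skin. Most points of neutrophil markers, matrix proteases and inhibitors, and NRF2 targets lie above 0, and 35 of the 36 cornified envelope genes lie below it.

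Nedd8 itself (GRCm39, chr14:55899720-55909581, minus strand) was measured at 308 and 151 CPM in the knockout libraries and at 314 and 461 CPM in the Cre-negative libraries. Both knockout libraries were below both Cre-negative libraries, with knockout library 1 close to Cre-negative library 1. The log2 fold change was -0.76 ± 0.50 (SE) with an adjusted p of 0.326, and an exact two-sided permutation test over the 4 values gave p = 0.333, the smallest that 2 against 2 allows. Bulk skin also holds cells outside the K14 lineage, and which part of Nedd8 the deletion removes is not stated in the labels. A 3' count may lie outside it and is a weak check of the labels.

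Of 22 genes of the NEDD8 conjugation and deconjugation machinery, 0 were higher and 2 were lower (9.09%, beside 6.33% of all genes tested). Cops7b, a subunit of the COP9 signalosome that removes NEDD8 from cullins, was at 16.1 and 14.6 CPM in knockout and 44.8 and 47.5 CPM in Cre-negative skin, a log2 fold change of -1.59 ± 0.31 (adjusted p = 0.00464). Rbx1, the RING subunit that carries the NEDD8-charged enzyme to cullins, was at 55.5 and 66.7 against 94.5 and 154 CPM (-1.03 ± 0.32, adjusted p = 0.0387). The Rbx1 call was lost without knockout library 1 (adjusted p = 0.250), knockout library 2 (0.0778) or Cre-negative library 2 (0.296). Among 22 cullins and ligase core genes 1 was lower (4.55%, beside 6.33% of all genes tested), the adaptor elongin B (Elob, -1.19 ± 0.34, adjusted p = 0.0265). Its call was lost without knockout library 1 (log2 fold change -1.05), knockout library 2 (-1.38) or Cre-negative library 2 (-0.98). Of 17 cell cycle substrates of cullin ligases 0 passed with edgeR or DESeq2, and 1 had an unadjusted p below 0.05. Of 16 SUMO pathway genes 0 passed with either tool, and 1 in each direction had an unadjusted p below 0.05.

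The lists of epidermal differentiation had their calls in the lower direction. Of 20 suprabasal keratin and early differentiation genes 14 were lower and 0 higher, with a median log2 fold change of -2.99 beside 0.02 over all genes tested. Of 36 cornified envelope genes 24 were lower and 0 higher (median -2.53). Without knockout library 1 fewer members of both lists were called, as were fewer of all genes. Leaving out 1 library at a time gave medians of -3.84 to -2.57 for the first list and -3.76 to -2.16 for the second.

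Krt10, the main acidic keratin of suprabasal cells (chr11:99276080-99280190), was at 15.4 and 20.4 CPM in the knockout libraries and at 2235 and 491 CPM in the Cre-negative libraries. Its partner Krt1 was at 29.3 and 99.0 against 4639 and 1104 CPM. The groups were far apart although the Cre-negative libraries differed from each other more than 4-fold, and the log2 fold changes were -6.25 ± 1.07 for Krt10 (adjusted p = 0.00204) and -5.48 ± 0.82 for Krt1 (adjusted p = 0.000904). Krtdap, a secreted protein of differentiating keratinocytes, was at 190 and 404 against 2638 and 3505 CPM (-3.37 ± 0.48, adjusted p = 0.000707). The desmosomal cadherin Dsg1a was lower by a similar amount (-3.61 ± 0.49, adjusted p = 0.000513). Skint1, a keratinocyte protein needed for epidermal gamma-delta T cell selection, had 0 counts in both knockout libraries and 5.45 and 5.45 CPM in the Cre-negative libraries, at least 44.4-fold lower against a floor of 3 counts over the group. Its relative Skint3 was at 1.29 and 1.68 against 104 and 60.1 CPM (-5.78 ± 0.61, adjusted p = 0.000171). Reads of Skint genes may be divided among near-identical copies.

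Late differentiation followed the same direction. Lce1j, a late cornified envelope protein, was at 0.380 and 1.86 CPM in knockout skin and 43.2 and 53.1 CPM in Cre-negative skin (-5.45 ± 0.78, adjusted p = 0.000683). Casp14, the protease that processes filaggrin, was at 5.40 and 6.38 against 172 and 81.5 CPM (-4.42 ± 0.50, adjusted p = 0.000211). The crosslinking enzyme Tgm5 and the desquamation protease Klk5 were also lower, by 4.22 ± 0.50 and 3.50 ± 0.35 on the log2 scale (adjusted p = 0.000279 and 0.00012). Loricrin (Lor, named after its values were seen) was at 8.45 and 14.9 against 531 and 104 CPM (-4.77 ± 0.98, adjusted p = 0.00556), and its call was lost without knockout library 1 (0.0798). Filaggrin (Flg) at 48.4 and 113 against 1253 and 136 CPM passed narrowly (-3.11 ± 1.01, adjusted p = 0.0484). That call rested on Cre-negative library 1, without which the log2 fold change was -0.81 (adjusted p = 0.607), and was also lost without either knockout library (0.309 and 0.0923). Involucrin (Ivl) was lower by 1.62 ± 0.41 (adjusted p = 0.0163), a call lost without Cre-negative library 1 (0.0867) or knockout library 1 (0.178).

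Krt6a, Krt16 and Krt17 are keratins of wounded and psoriatic epidermis. Krt6a was at 5298 and 9216 CPM in knockout and 12039 and 9671 CPM in Cre-negative skin, and the log2 fold change of -0.58 ± 0.42 did not pass (adjusted p = 0.377). Krt16 was at 1572 and 2049 against 4962 and 4411 CPM and did not pass either (-1.37 ± 0.58, adjusted p = 0.123). Krt17 was lower at 285 and 451 against 1725 and 1847 CPM (-2.28 ± 0.40, adjusted p = 0.00238).

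Over the list of 22 wound keratins, small proline-rich proteins and Lce3 genes, 8 were lower and 0 higher (median -1.17). The count was 2 without knockout library 1, 5 without Cre-negative library 1 and 4 without Cre-negative library 2. Sprr2b, a small proline-rich envelope precursor, was at 1.14 and 19.7 against 309 and 268 CPM (-4.79 ± 0.95, adjusted p = 0.00468). Lce3b was at 16.4 and 42.9 against 227 and 284 CPM (-3.11 ± 0.70, adjusted p = 0.00867), and was lost without knockout library 1 (0.108). The groups overlapped in neither gene, which held for 2864 of the 2866 called genes. Sprr2 and Lce3 genes stand in clusters of near-identical copies, so the split of reads among them is uncertain.

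Basal cells gave a mixed picture. Krt5 (542 and 1024 against 1423 and 760 CPM) and Krt14 (4655 and 7710 against 11549 and 9708 CPM), the keratin pair of basal keratinocytes, did not pass the test (adjusted p = 0.574 and 0.235). Of 18 basal and hemidesmosome genes 6 were higher and 2 lower. Lamb3, a laminin chain of the epidermal basement membrane, was among the 6 and was higher by 2.58 ± 0.46 (adjusted p = 0.00253). The 2 lower members were Krt15, a keratin of resting basal and bulge cells, at 2.36 and 1.86 against 37.9 and 33.4 CPM (-4.07 ± 0.46, adjusted p = 0.000222), and Sostdc1, named after its values were seen. The 6 higher calls were 3 without knockout library 1, without knockout library 2 or without Cre-negative library 2.

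Lipid genes held several of the largest decreases of all genes tested. Of 26 sebaceous gland lipid genes 10 were lower and 1 higher, and of 26 acylceramide and barrier lipid enzymes 10 were lower and 1 higher, with 4 lower in the second list without knockout library 1. Elovl3, a fatty acid elongase of the sebaceous gland, was at 0.152 and 0.0886 CPM in the knockout libraries and at 133 and 203 CPM in the Cre-negative libraries. With 3 counts in the knockout group, the ratio of the counts was 1474-fold, with a 95% interval of 504 to 7150 that covers counting error only. Far2, a fatty acyl reductase of wax synthesis, was at 0.228 and 0.0886 against 50.1 and 67.4 CPM (-8.43 ± 0.77, adjusted p = 8.82e-05), and the wax synthase Awat1 was at 0.228 and 0.0886 against 44.2 and 39.0 CPM (-7.93 ± 1.06, adjusted p = 0.000474). Krt79, a keratin of the sebaceous duct, was at 13.1 and 4.69 against 634 and 480 CPM (-5.96 ± 0.60, adjusted p = 0.000116). The sebocyte defining markers Awat2 and Mc5r summed to 0.380 and 0.620 CPM against 3.87 and 4.84 CPM. In whole skin, fewer cells of a type and less RNA per cell cannot be told apart.

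Sptlc3, a subunit of serine palmitoyltransferase, was at 2.21 and 3.01 against 53.9 and 24.5 CPM (-3.90 ± 0.53, adjusted p = 0.000503). Cers4, a ceramide synthase, fell by 3.67 ± 0.57 on the log2 scale (adjusted p = 0.00115), and acid sphingomyelinase (Smpd1) fell by 2.23 ± 0.33 (adjusted p = 0.000846).

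The 15 largest decreases that met the naming rule included several lipid enzymes and secreted proteins. The carboxylesterase Ces4a had 0 counts in the knockout group against 23.1 and 23.8 CPM, at least 191-fold lower. AAdacl4fm3 was at least 171-fold lower, the lipase Pnpla5 at least 136-fold lower and the serpin Serpina3j at least 51.1-fold lower, each with 0 counts in the knockout group. Alox8, a lipoxygenase of epidermis, was at 0.761 and 1.06 against 161 and 179 CPM (-7.54 ± 1.15, adjusted p = 0.00104). Aldehyde oxidase Aox4 was at 0.152 and 1.51 against 151 and 88.9 CPM (-7.20 ± 0.84, adjusted p = 0.000242). Slurp1, a secreted regulator of the keratinocyte barrier, was at 0.0761 and 0.0886 against 16.9 and 17.1 CPM, a ratio of 208-fold (95% interval 57.2 to 1725). Dgat2l6, Aadac and Clca3a2 were the others, beside Skint1, Elovl3, Far2, Awat1 and Defb6 described elsewhere. Non-overlap between the groups was a condition of the naming rule, and it held for 8972 genes (56.0%) in all.

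Neutrophil markers had the highest median of the 54 lists (5.07), with 20 of 27 tested members higher and 2 lower. Leaving out 1 library at a time gave 16 to 18 higher. Ngp, a protein of neutrophil secondary granules (chr9:110248815-110252080), was at 1145 and 187 CPM in the knockout libraries and at 0.861 and 0.0673 CPM in the Cre-negative libraries (10.82 ± 1.39, adjusted p = 0.000405). Camp, the precursor of the granule peptide cathelicidin, was at 17.7 and 8.59 CPM and had 0 counts in the Cre-negative group, at least 95.8-fold higher. Retnlg, a secreted product of neutrophils, was at 1416 and 788 against 4.73 and 3.70 CPM (8.04 ± 1.13, adjusted p = 0.000644).

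Neutrophil collagenase Mmp8 was at 2208 and 698 against 6.74 and 11.0 CPM (7.35 ± 0.97, adjusted p = 0.000455), and the surface antigen Ly6g, named after its values were seen, at 81.3 and 30.4 against 0.717 and 0.336 CPM (6.82 ± 0.78, adjusted p = 0.000469). The receptors of the C-type lectin family Clec4d and Clec4e were higher by 5.11 ± 0.59 and 5.59 ± 0.50 (adjusted p = 0.000238 and 9.42e-05). Hdc, which makes histamine and is expressed in neutrophils as well as mast cells, was at 1450.3 and 621 against 14.6 and 16.6 CPM (6.05 ± 0.49, adjusted p = 6.8e-05). The mast cell markers Cpa3 and Mcpt4 summed to 5.48 and 4.87 against 3.73 and 5.79 CPM and overlapped. Of the 8 tested mast cell and basophil markers, which include Hdc, 3 were higher and 0 lower (median 1.20). Which cells the Hdc reads came from was not tested. Lactoferrin (Ltf) at 40.7 and 2.92 against 0 and 0.269 CPM was far apart between the knockout libraries, and its call was lost without knockout library 1 (adjusted p = 0.0568).

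Other genes of the same list moved otherwise. The alarmins S100a8 (81713 and 34415 against 54076 and 121400.0 CPM) and S100a9 (27814 and 17469 against 31837 and 71399.8 CPM) did not pass (adjusted p = 0.754 and 0.436), and for S100a8 the groups overlapped. They are made by inflamed keratinocytes as well as neutrophils. The 2 lower members, both named after their values were seen, were the cysteine protease inhibitors Stfa1 (91.0 and 90.9 against 1401 and 1773 CPM, adjusted p = 0.00516) and Stfa3 (582 and 379 against 6947 and 10406 CPM, adjusted p = 0.00491). The Stfa1 call was lost without knockout library 1 (0.0653). Their relative Stfa2l1 was higher at 321 and 131 against 4.59 and 2.62 CPM (6.00 ± 0.61, adjusted p = 0.000225), and reads of these near-identical genes may be shared. The receptor for G-CSF, Csf3r, was at 32.3 and 65.5 against 5.31 and 14.3 CPM (2.30 ± 0.55, adjusted p = 0.0118), lost without Cre-negative library 1 (0.0946) or knockout library 2 (0.0976). Cxcr2, named after its values were seen, did not pass (1.58 ± 0.66, adjusted p = 0.121).

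Of 24 macrophage and monocyte genes 12 were higher and 0 lower (median 1.86). The count was 5 without knockout library 1 and 6 without Cre-negative library 1. The inducible nitric oxide synthase Nos2, the largest increase by the naming rule (chr11:78811613-78851080), was at 69.4 and 34.4 CPM in knockout skin with 0 counts in Cre-negative skin, at least 378-fold higher. The lipopolysaccharide co-receptor Cd14 was at 713 and 489 against 8.75 and 13.1 CPM (5.77 ± 0.57, adjusted p = 0.000108), and the cytokine Spp1 at 526 and 173 against 7.32 and 5.45 CPM (5.78 ± 0.80, adjusted p = 0.000623). C1qa was at 814 and 364 against 97.8 and 348 CPM (adjusted p = 0.232) and Adgre1, which encodes F4/80, at 35.8 and 12.0 against 9.61 and 38.4 CPM (adjusted p = 0.993), and neither passed. C1qa and Adgre1 were named after their values were seen.

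**Figure D2:**
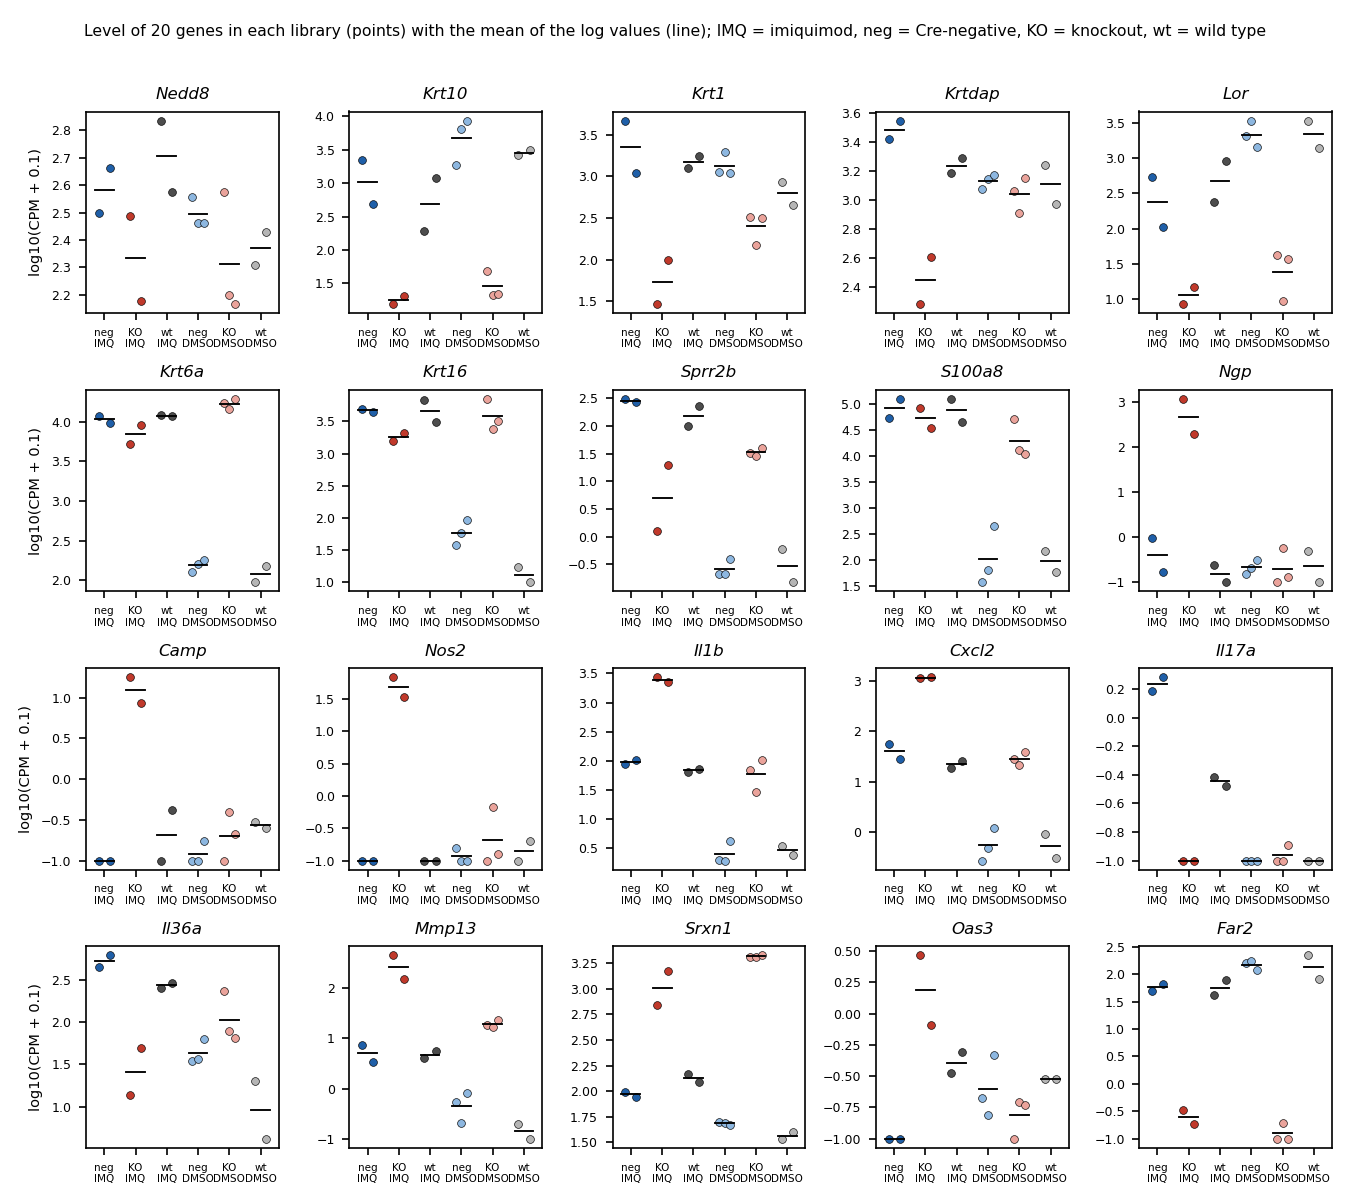
Level of 20 genes in each of the 14 libraries, as log10(CPM + 0.1), grouped by genotype and treatment; points are libraries and lines are means of the log values. With imiquimod, Krt10, Krt1 and Lor are lower and Ngp, Camp, Nos2 and Il1b higher in both knockout libraries than in both Cre-negative and both wild-type libraries, whereas the groups overlap for S100a8.

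Of 27 chemokines of inflamed skin 11 were higher and 1 lower (median 1.96), with 4 higher without knockout library 1 and 4 without Cre-negative library 1. Cxcl2, a ligand of the neutrophil receptor CXCR2, was at 1152 and 1204 against 56.7 and 28.6 CPM (4.79 ± 0.65, adjusted p = 0.000547). Ccl3 and Ccl4, chemokines that attract myeloid cells and T cells, were at 203 and 90.9 against 1.87 and 1.55 CPM (6.44 ± 0.79, adjusted p = 0.000313) and at 936 and 562 against 10.0 and 11.5 CPM (6.12 ± 0.90, adjusted p = 0.00085). Csf3, the gene of G-CSF, was at 153 and 57.0 against 2.01 and 1.61 CPM (5.87 ± 0.74, adjusted p = 0.000358). Cxcl1 was higher (3.37 ± 0.96, adjusted p = 0.0282) but was lost when any of the 4 libraries was left out, with adjusted p between 0.0648 and 0.136. Ccl20, a ligand for CCR6 on IL-17-producing cells and named after its values were seen, was the lower member at 0 and 0.443 against 12.3 and 7.06 CPM (adjusted p = 0.0425), and it too was lost without any of the 4 libraries (0.0755 to 0.277).

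The IL-1 family had calls in both directions. Of 17 members 5 were higher and 4 lower. Il1b, the form made by myeloid cells, was at 2729 and 2225 CPM in knockout and 88.2 and 103 CPM in Cre-negative skin (4.69 ± 0.59, adjusted p = 0.000356). Its decoy receptor Il1r2 was at 894 and 378 against 12.9 and 24.8 CPM (5.07 ± 0.65, adjusted p = 0.000405), and Il1rl1, the IL-33 receptor, at 133 and 37.7 against 1.15 and 1.28 CPM (6.11 ± 0.74, adjusted p = 0.000313). Nlrp3, the inflammasome sensor, was higher by 4.54 ± 0.84 (adjusted p = 0.00336).

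Among the lower members, Il36a, an epithelial cytokine that drives psoriasis-like inflammation (chr2:24105430-24115714), was at 13.6 and 49.1 against 443 and 608 CPM (-4.07 ± 0.83, adjusted p = 0.00547), a call lost without knockout library 1 (0.0700). Il33, an alarmin kept in epithelial nuclei, was at 43.0 and 50.3 against 268 and 438 CPM (-2.92 ± 0.43, adjusted p = 0.000798). The others were Il36b and Il36rn, and 2 of the 4 lower calls were left without knockout library 1. Of 11 IL-20 family and epidermal alarm cytokine genes 5 were higher and 2 lower, with 3 higher without Cre-negative library 1. Il24 was at 170 and 135 against 3.01 and 1.68 CPM (6.06 ± 0.73, adjusted p = 0.000469) and Tnf at 32.6 and 23.7 against 0.861 and 2.69 CPM (3.91 ± 0.58, adjusted p = 0.000846). The lower ones were the receptor subunit Il20rb (-3.04 ± 0.34, adjusted p = 0.000202) and Tslp, named after its values were seen, at 0.533 and 0.886 against 9.61 and 23.8 CPM (-4.56 ± 0.71, adjusted p = 0.0011).

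The IL-23 and IL-17 axis, the core pathway of imiquimod dermatitis, was measured at low levels. Il17a (chr1:20801129-20804720) had 0 counts in the knockout group and 1.43 and 1.82 CPM in the Cre-negative group, at least 13.2-fold lower, with an adjusted p of 0.00517 that became 0.0575 without knockout library 1. Il17f, named after its values were seen, had 1 count in the knockout group against 4.73 and 3.03 CPM, a ratio of 87.3-fold (95% interval 15.2 to 3491, adjusted p = 0.0117), lost without Cre-negative library 1 (0.0523) or knockout library 1 (0.127). Il23a was at 2.97 and 8.41 against 4.02 and 4.10 CPM, overlapped and did not pass (0.48 ± 0.52, adjusted p = 0.577). Il6 was higher at 5.55 and 16.9 against 0.574 and 0.875 CPM (adjusted p = 0.00706, 0.0594 without Cre-negative library 1), and oncostatin M (Osm) at 60.3 and 63.9 against 3.16 and 1.82 CPM (4.67 ± 0.87, adjusted p = 0.00334).

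The list of IL-17 target and antimicrobial genes moved in both directions, with 11 of 31 higher and 6 lower (2 lower without knockout library 1). Genes shared with neutrophils or encoding neutrophil attractants, such as Camp, Cxcl2, Cxcl5 and Csf3, were among the higher ones. The lower ones included 3 beta-defensins, antimicrobial peptides of keratinocytes. Defb6 was at 3.50 and 6.29 CPM in the knockout libraries and at 855 and 1007 CPM in the Cre-negative libraries (-7.57 ± 0.66, adjusted p = 8.22e-05). Defb3 was at 2.59 and 9.65 against 148 and 253 CPM (-5.04 ± 0.98, adjusted p = 0.0044), lost without knockout library 1 (0.0626). Defb4, in contrast, was at 25.3 and 37.1 against 41.0 and 29.5 CPM, overlapped and did not pass (adjusted p = 0.857).

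Genes of innate sensing and NF-kB feedback were higher, with 5 of 17 Toll-like receptor genes and adaptors and 9 of 19 NF-kB subunit and feedback genes past the test and 0 lower in either list. Without knockout library 1 these counts were 3 and 2, without Cre-negative library 1 the first was 3, and without Cre-negative library 2 the second was 5. Tlr2 was at 199 and 67.8 against 4.73 and 13.7 CPM (3.84 ± 0.63, adjusted p = 0.00167) and Tlr13 was higher by 4.21 ± 0.58 (adjusted p = 0.000549). Nfkbie and Tnfaip3, both inhibitors of NF-kB that the pathway itself induces, were at 17.4 and 7.17 against 0.574 and 1.14 CPM (3.76 ± 0.67, adjusted p = 0.00261) and at 17.1 and 13.3 against 1.004 and 2.49 CPM (3.06 ± 0.59, adjusted p = 0.00398).

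Of 36 interferon-stimulated genes 15 were higher and 0 lower (median 1.76). The count was 5 without knockout library 1, 9 without Cre-negative library 1 and 7 without Cre-negative library 2. Trim30a was at 46.4 and 29.8 against 5.88 and 9.96 CPM (2.25 ± 0.40, adjusted p = 0.00274), Ifi204, a DNA sensor, at 58.4 and 37.5 against 12.6 and 14.9 CPM (1.80 ± 0.34, adjusted p = 0.0037), and Oasl1 at 9.05 and 4.60 against 0.287 and 0.471 CPM (4.07 ± 0.56, adjusted p = 0.000581). Isg15, a ubiquitin-like protein induced by interferon and named after its values were seen, was at 42.9 and 32.3 against 3.30 and 8.61 CPM (adjusted p = 0.0118), lost without Cre-negative library 1 (0.0995) or knockout library 1 (0.0741).

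The 250 bases before their starts were searched for the core of the interferon response element, GAAANNGAA on either strand. It stood in 18 of the 27 list members with a promoter in the RefSeq table (build GRCm38.p6), in 7 of the 11 called higher with a promoter, and in 7.16% of all 27025 promoters. A match is a description of these letters and not a site of binding. The windows of Isg15 (minus strand, chr4:156200819-156201068), which has overlapping matches, and Trim30a (minus strand, chr7:104465194-104465443) are shown 5' to 3' with matched bases in capitals.
Isg15: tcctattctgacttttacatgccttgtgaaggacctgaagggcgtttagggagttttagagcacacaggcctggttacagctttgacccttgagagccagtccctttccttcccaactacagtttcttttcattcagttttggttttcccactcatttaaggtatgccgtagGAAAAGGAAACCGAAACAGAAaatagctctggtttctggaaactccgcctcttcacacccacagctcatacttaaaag
Trim30a: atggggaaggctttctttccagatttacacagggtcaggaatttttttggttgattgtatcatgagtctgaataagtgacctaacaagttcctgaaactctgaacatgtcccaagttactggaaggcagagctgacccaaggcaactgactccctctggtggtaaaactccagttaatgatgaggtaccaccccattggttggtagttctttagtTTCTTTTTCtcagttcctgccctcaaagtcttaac

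Matrix proteases remodel the dermis and release cells from it. In the list of matrix proteases and inhibitors 14 of 22 members were higher and 0 lower (median 3.60). The collagenase Mmp13 was at 450.5 and 154 CPM in knockout and 7.32 and 3.30 CPM in Cre-negative skin (5.86 ± 0.71, adjusted p = 0.000313). The stromelysin Mmp10 was at 90.3 and 29.9 against 0.287 and 0.807 CPM (6.63 ± 0.82, adjusted p = 0.000337), and Mmp3, named after its values were seen, at 1838 and 739 against 45.9 and 169 CPM (3.58 ± 0.70, adjusted p = 0.00441). Plaur, the urokinase receptor, was at 151 and 195 against 4.73 and 5.38 CPM (5.09 ± 0.70, adjusted p = 0.000577). Knockout library 1 was higher than knockout library 2 for all of these but Plaur.

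The AP-1 site TGANTCA, a known element of several of these promoters, was present on either strand in 6 of the 15 list members with a promoter in the RefSeq table, in 4 of the 9 called higher with a promoter, and in 6.87% of all promoters. Fosl1, an AP-1 subunit, was itself at 58.7 and 56.9 against 9.33 and 19.5 CPM (1.99 ± 0.44, adjusted p = 0.00847), a call lost without Cre-negative library 1 (0.0798) or knockout library 1 (0.0518). The 250 bases before the starts of Mmp13 (plus strand, chr9:7272264-7272513 on GRCm38.p6) and Mmp10 (plus strand, chr9:7502092-7502341) are shown 5' to 3' because they are the proteases with a match that rose most, with the match in capitals.
Mmp13: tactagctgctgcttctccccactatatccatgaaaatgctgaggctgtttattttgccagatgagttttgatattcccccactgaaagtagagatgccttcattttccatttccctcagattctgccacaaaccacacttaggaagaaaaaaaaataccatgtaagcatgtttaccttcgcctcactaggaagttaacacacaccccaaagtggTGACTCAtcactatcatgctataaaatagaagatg
Mmp10: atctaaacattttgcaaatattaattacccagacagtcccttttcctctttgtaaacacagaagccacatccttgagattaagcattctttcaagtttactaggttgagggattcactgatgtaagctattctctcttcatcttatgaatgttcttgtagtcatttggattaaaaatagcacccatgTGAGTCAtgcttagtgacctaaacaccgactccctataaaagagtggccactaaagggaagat

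NRF2 is held down by the cullin-3 ligase adaptor KEAP1, and its targets make glutathione and detoxify electrophiles. Of 35 targets tested 20 were higher and 1 lower (median 1.76), and 13 were higher without Cre-negative library 1. Srxn1, sulfiredoxin, was at 690.1 and 1484 CPM in the knockout libraries and at 98.6 and 87.5 CPM in the Cre-negative libraries (3.55 ± 0.39, adjusted p = 0.000187). Both subunits of the enzyme that limits glutathione synthesis were higher: Gclc at 354 and 831 against 20.9 and 11.4 CPM (5.20 ± 0.66, adjusted p = 0.00036) and Gclm at 201 and 308 against 33.4 and 28.7 CPM (3.04 ± 0.38, adjusted p = 0.000339). The glutathione peroxidase Gpx2 was at 354 and 564 against 7.60 and 13.3 CPM (5.45 ± 0.61, adjusted p = 0.000202).

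For Srxn1, Gclc, Gclm and Gpx2, knockout library 2 was higher than knockout library 1, the reverse of the order for Mmp13 and Ngp. Heme oxygenase Hmox1, named after its values were seen, was at 649.5 and 261 against 74.5 and 52.2 CPM (2.85 ± 0.42, adjusted p = 0.000903) and had the order of Mmp13. Nqo1 was at 36.7 and 105 against 7.32 and 21.9 CPM (2.27 ± 0.54, adjusted p = 0.0117), lost without Cre-negative library 1 (0.0918) or knockout library 2 (0.146). The lower member was the malic enzyme Me1, named after its values were seen (-1.77 ± 0.52, adjusted p = 0.0317), lost without Cre-negative library 1 (0.107), Cre-negative library 2 (0.0814) or knockout library 1 (0.233).

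The core of the antioxidant response element, TGANNNNGC, was found on either strand of the 250 bases before the start in 15 of 30 targets with a promoter in the RefSeq table and in 10 of the 17 called higher with a promoter, beside 35.1% of all promoters. The windows of Srxn1 (plus strand, chr2:152105274-152105523 on GRCm38.p6) and Gclm (plus strand, chr3:122245307-122245556) are given 5' to 3' with matches in capitals, since they are core targets with a match. The TGAGTCA within the last match of Srxn1 also spells the AP-1 site.
Srxn1: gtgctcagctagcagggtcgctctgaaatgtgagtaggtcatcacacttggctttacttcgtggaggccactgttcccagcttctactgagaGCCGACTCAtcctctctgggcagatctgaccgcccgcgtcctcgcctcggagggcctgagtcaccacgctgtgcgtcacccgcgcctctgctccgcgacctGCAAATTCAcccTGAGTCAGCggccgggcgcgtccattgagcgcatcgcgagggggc
Gclm: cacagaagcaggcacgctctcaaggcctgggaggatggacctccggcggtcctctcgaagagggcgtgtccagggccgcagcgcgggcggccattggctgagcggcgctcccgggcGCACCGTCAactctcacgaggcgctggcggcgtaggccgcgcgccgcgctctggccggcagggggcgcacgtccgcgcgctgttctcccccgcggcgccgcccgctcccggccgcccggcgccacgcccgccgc

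Genes of mucosal and simple epithelia, which resting epidermis hardly expresses, were higher in 8 of 25 and lower in 2. Gcnt3, a mucin glycosyltransferase, was at 15.7 and 38.8 CPM with 0 counts in Cre-negative skin, at least 198.5-fold higher. Krt18, a keratin of simple epithelia, was at 20.5 and 14.7 against 0.143 and 0.135 CPM, a ratio of 129.6-fold (95% interval 44.0 to 631). Mal, a membrane protein of apical transport chosen by the naming rule and outside the list, was at 142 and 319 against 1.58 and 0.404 CPM (8.02 ± 0.67, adjusted p = 6.8e-05). The receptor Gprc5a, also outside the list, was at 99.8 and 90.1 against 0 and 0.471 CPM (8.27 ± 1.41, adjusted p = 0.00199). Without Cre-negative library 2 the Cre-negative side of Gprc5a has 0 counts, so the fitted value then (13.50) is no estimate of size. The 2 lower members, Ly6g6c and Tmprss11a, were named after their values were seen.

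The remaining genes among the 15 largest increases had 0 counts in the Cre-negative group. They were Dynap (at least 150-fold higher), Ly6a2 (104-fold), Scrg1 (82.8-fold), the prolactin-family gene Prl8a1 (77.5-fold), Fam169b (54.8-fold), the cell adhesion gene Cadm2 (42.8-fold) and the oocyte linker histone H1f8 (37.2-fold), each as a lower bound, and Serpina3m. Dynap was at 18.7 and 22.5 CPM and Prl8a1 at 11.1 and 10.2 CPM in the knockout libraries, close to each other, while Scrg1 at 18.5 and 4.25 CPM differed between them. The bounds hold against the Cre-negative imiquimod libraries only. Wild-type imiquimod libraries held 0.565 and 0.545 CPM of Cadm2 and 0.188 and 0.312 CPM of Fam169b. Against them the log2 fold changes were 3.39 and 4.92. Dynap and H1f8 were at 0 CPM in these libraries too.

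**Figure D3:**
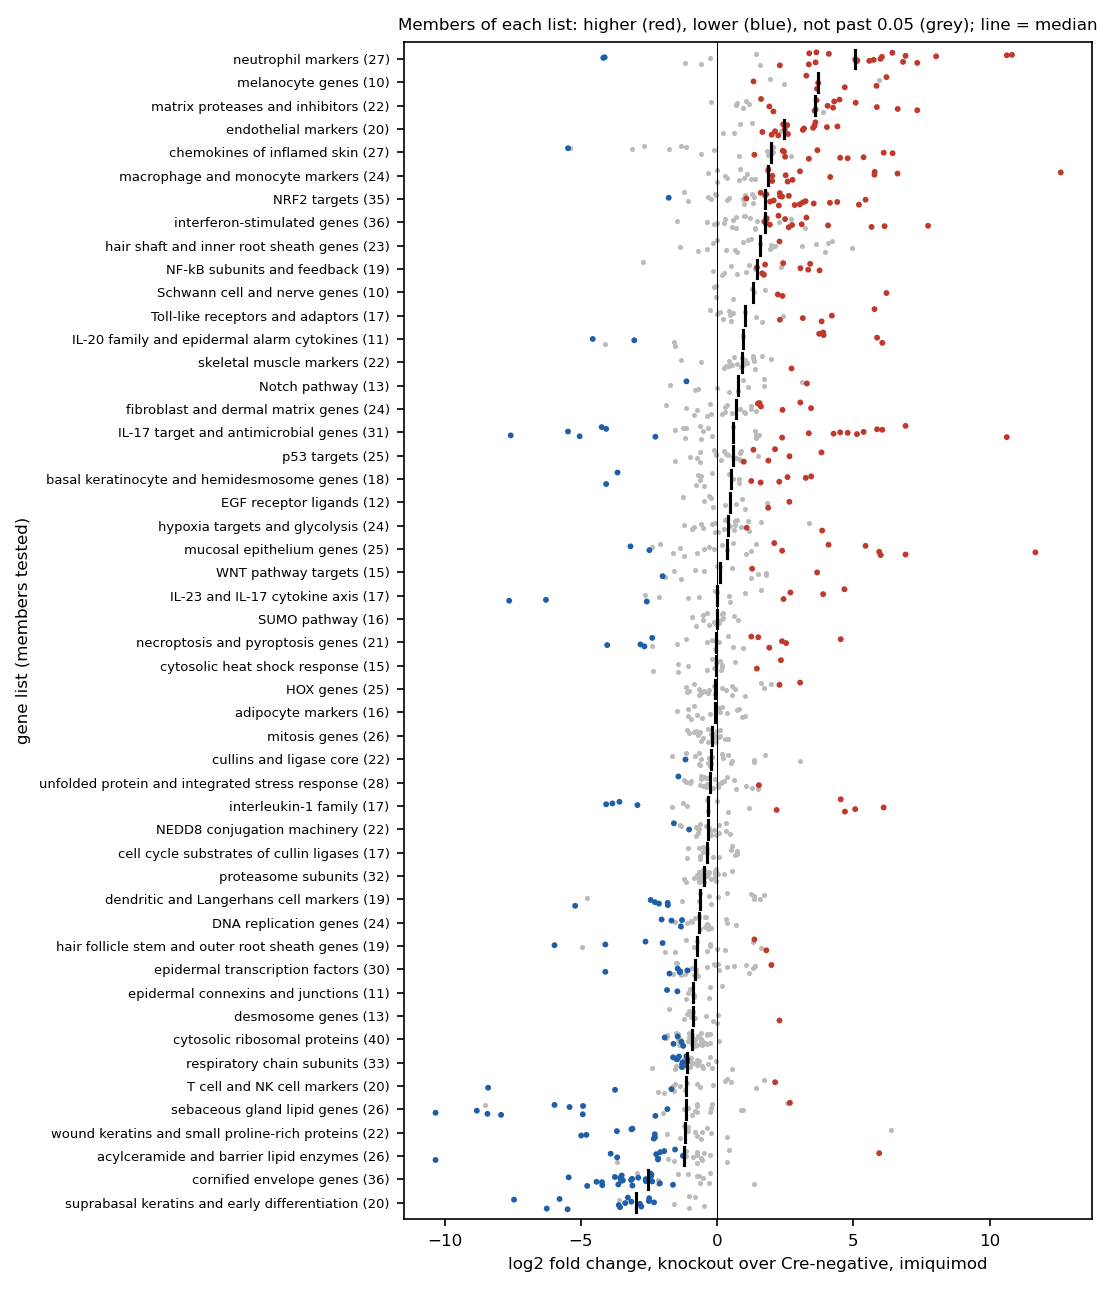
Log2 fold change with imiquimod of every tested member of each list with at least 10 tested members, sorted by the median (black line); red and blue points passed an adjusted p of 0.05 and grey points did not. Neutrophil markers (median 5.07) are at the top and suprabasal genes (median -2.99) at the bottom, and the medians of the NEDD8, cullin and SUMO lists are -0.35, -0.23 and 0.0041.

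Markers of other skin cells also differed. Of 20 endothelial markers 15 were higher and 0 lower (median 2.46), with 4 without knockout library 1, 6 without Cre-negative library 1 and 8 without Cre-negative library 2. The defining markers Pecam1 and Cdh5 summed to 97.8 and 48.4 CPM against 15.2 and 16.3 CPM. Esam, an endothelial junction protein, was at 78.7 and 47.6 against 6.31 and 7.47 CPM (3.19 ± 0.39, adjusted p = 0.000313), and Eng and Kdr were higher by 3.15 ± 0.59 and 2.60 ± 0.48 (adjusted p = 0.00349 and 0.00331). Of 10 melanocyte genes 7 were higher and 0 lower, with 3, 4, 3 and 1 when knockout 1, knockout 2, Cre-negative 1 and Cre-negative 2 were left out in turn. Dct, an enzyme of melanin synthesis, was at 84.2 and 110 against 10.6 and 4.91 CPM (3.67 ± 0.76, adjusted p = 0.00603, 0.0675 without Cre-negative library 2).

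Of 24 fibroblast and matrix genes 6 were higher and 0 lower, and 1 was higher without knockout library 1 or without Cre-negative library 1. The defining markers Col1a1, Pdgfra and Dcn summed to 1700.0 and 1252 against 401 and 989 CPM. Twist2, a dermal fibroblast factor, was at 77.9 and 61.5 against 3.87 and 12.6 CPM (3.06 ± 0.59, adjusted p = 0.00423), whereas Col1a1 was at 139 and 197 against 128 and 309 CPM and overlapped (adjusted p = 0.717). Skeletal muscle markers overlapped (1755 and 584 against 517 and 690 summed CPM), with 1 of 22 higher, Actn2 (adjusted p = 0.0327), which was lost without knockout library 1 (0.494), Cre-negative library 1 (0.161) or Cre-negative library 2 (0.123). Of 16 adipocyte markers 0 passed with edgeR or DESeq2, and 1 had an unadjusted p below 0.05. Keratinocyte defining markers (Krt5, Krt14, Krt10) summed to 5212 and 8755 CPM in knockout skin and averaged 0.534 of the Cre-negative sum, without overlap. The part that a different share of epidermis and dermis, or a different body site, has in the differences above was not tested. Of 25 HOX genes, which carry positional identity in skin, 2 were higher, which is 8.0% beside 11.6% of all genes tested. Hoxd9 (adjusted p = 0.00747) lost its call without knockout library 1 (log2 fold change 2.26) or Cre-negative library 2 (2.96). Hoxc9 (adjusted p = 0.0314) lost its call when any of the 4 libraries was left out (log2 fold changes 1.76 to 3.19).

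**Figure D4:**
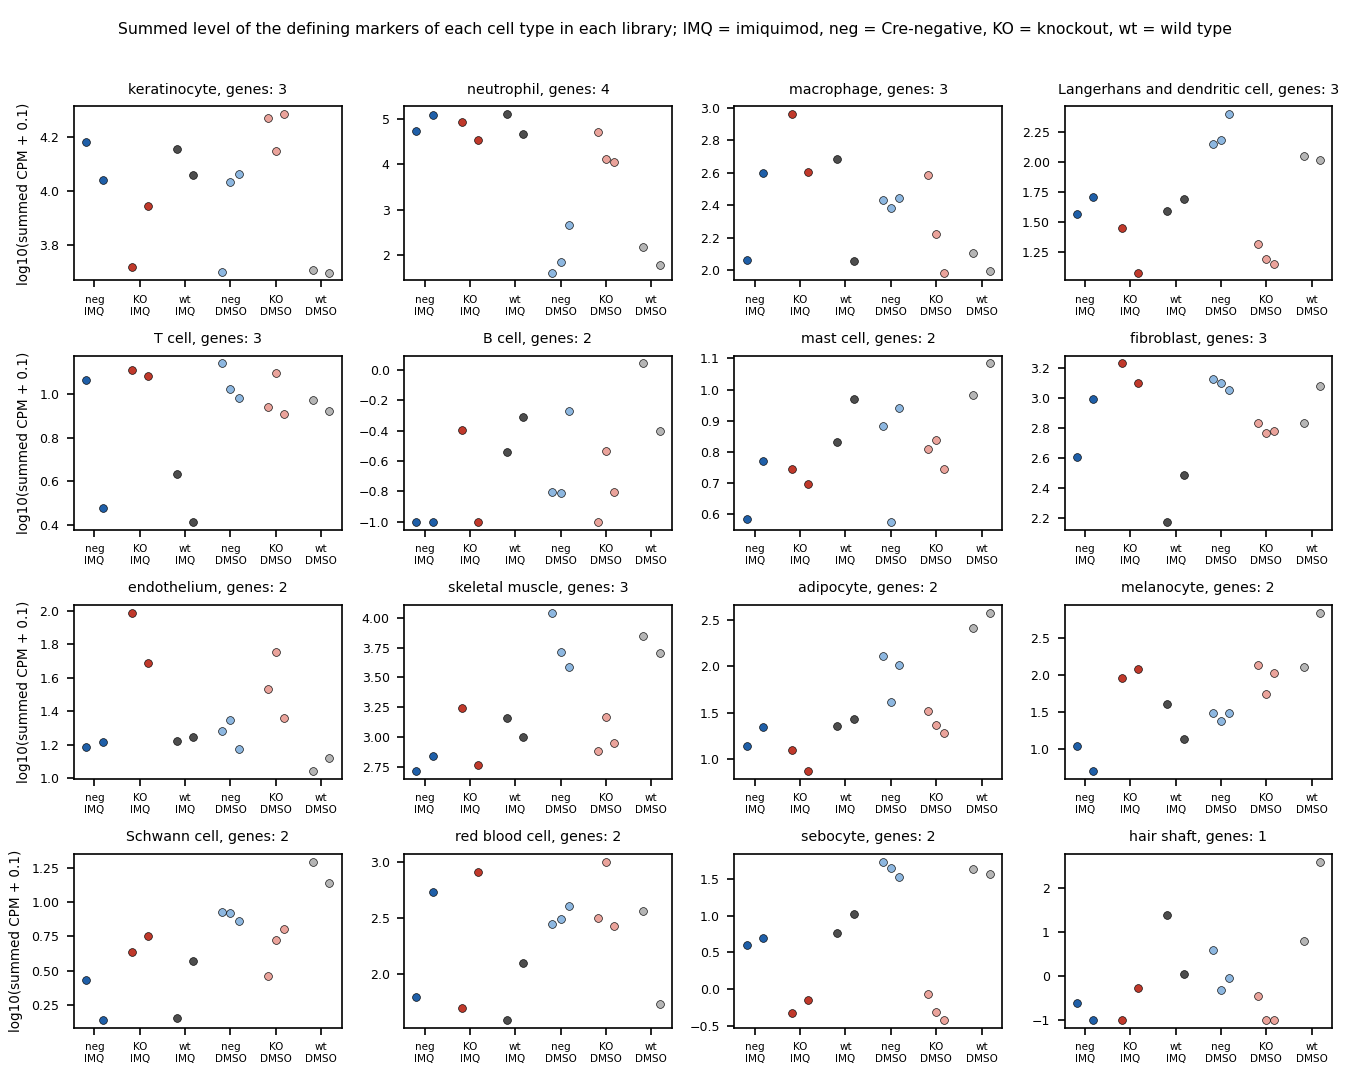
Summed CPM of the defining markers of each cell type in each of the 14 libraries on a log10 axis. With imiquimod the endothelial, melanocyte and fibroblast sums are higher, and the keratinocyte and sebocyte sums lower, in both knockout libraries than in both Cre-negative libraries, while the neutrophil sum, which S100a8 dominates, overlaps.

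Dendritic and Langerhans cell markers had their calls in the lower direction, although 7 members lay above 0 and 12 below it. Of 19 dendritic and Langerhans cell markers 6 were lower and 0 higher, with 3 without Cre-negative library 2. Cd207 (langerin), the Langerhans cell lectin, had 2 counts in the knockout group against 1.004 and 5.38 CPM in the Cre-negative libraries, a ratio of 48.7-fold (95% interval 13.1 to 408, adjusted p = 0.00765), lost without Cre-negative library 2 (0.0922) or knockout library 1 (0.0861). The class II gene H2-Eb1 was at 4.79 and 5.93 against 18.5 and 33.4 CPM (-2.28 ± 0.38, adjusted p = 0.00177), and Ciita, the activator of class II genes, fell by 2.44 ± 0.44 (adjusted p = 0.00288). The defining marker Cd74 was at 20.4 and 8.06 against 18.4 and 15.1 CPM and overlapped. Of 20 T cell and NK cell genes 3 were lower and 1 higher, at levels that limit precision: Cd3e was at 0.152 and 0.0886 against 1.29 and 0.0673 CPM (adjusted p = 0.21). The defining marker Trdc went the other way, at 11.9 and 11.9 against 7.60 and 1.55 CPM. The T cell defining markers Cd3e, Cd3d and Trdc summed to 12.9 and 12.0 against 11.5 and 2.89 CPM, higher in the knockout without overlap. Most of that sum was Trdc, while Cd3d was lower in the knockout, at 0.837 and 0.0886 against 2.58 and 1.28 CPM.

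Cell death genes also had calls in both directions. Of 21 necroptosis and pyroptosis genes 6 were higher and 4 lower. The higher count was 1 without knockout library 1, 3 without Cre-negative library 1 and 2 without Cre-negative library 2, and the lower count was 2 without knockout library 1 or Cre-negative library 2. Gsdma, a pore-forming gasdermin of differentiated keratinocytes, was at 27.2 and 58.3 against 287 and 256 CPM (-2.67 ± 0.41, adjusted p = 0.00102), and the inflammasome adaptor Pycard at 37.7 and 53.8 against 163 and 313 CPM (-2.38 ± 0.39, adjusted p = 0.00162).

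Mki67, a proliferation marker, was at 20.9 and 31.9 against 36.7 and 18.4 CPM and overlapped (adjusted p = 0.96), and of 26 mitosis genes 0 passed with edgeR or DESeq2, with 2 lower at an unadjusted p below 0.05. Ccne1 and Cdkn1a, cell cycle regulators that cullin ligases degrade as proteins, did not pass at the RNA level (adjusted p = 0.353 and 0.261). Of 32 proteasome subunits 0 passed with edgeR and 2 were lower with DESeq2, with 3 lower at an unadjusted p below 0.05. Of 24 DNA replication genes 4 were lower and 0 higher (median -0.65), with 0 lower without knockout library 1, 2 without Cre-negative library 2 and 0 with scaling by total count alone. Of 40 cytosolic ribosomal protein genes 5 were lower and 0 higher (median -0.90), with 0 lower without knockout library 1, without Cre-negative library 2 or with scaling by total count alone, 10 with a replicate block and 13 with DESeq2. Respiratory chain subunits were lower in 11 of 33 (median -1.09). That count was 0 without knockout library 1, 4 without knockout library 2, 1 without Cre-negative library 2 and 1 with scaling by total count alone. Among p53 targets 6 of 25 were higher, with 1 to 3 when any 1 library was left out. The 28 stress response genes held 1 higher and 1 lower call (3.57% each, beside 11.6% and 6.33% of all genes tested, median -0.24). The higher member was Ppp1r15a, the feedback phosphatase subunit of the integrated stress response, at 82.1 and 89.8 against 31.0 and 28.4 CPM (1.53 ± 0.29, adjusted p = 0.00381). Pfkfb3, an activator of glycolysis, was higher by 3.86 ± 0.50 (adjusted p = 0.00041) as 1 of 2 among 24 hypoxia and glycolysis genes (8.33%, beside 11.6% of all genes tested).

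Wild-type skin with imiquimod gave a further set of controls. Against Cre-negative skin with imiquimod, 0 of 16027 genes (0.0%) passed with edgeR, 2747 had an unadjusted p below 0.05, and DESeq2 called 552. Without wild-type library 2 the number was 557. The wild-type libraries held 4 and 6 counts of Y-linked genes and 549 and 499 of Xist and so came from females, and sex and genotype cannot be told apart in any comparison with them. Knockout skin differed from wild-type skin in 4225 genes, 2463 higher and 1762 lower. The knockout libraries are shared between both comparisons, and values are given side by side. The log2 fold change against wild-type skin was -5.27 for Krt10, -6.81 for Defb6, 12.79 for Ngp, 5.15 for Il1b, 3.01 for Srxn1 and 6.01 for Mmp13, beside -6.25, -7.57, 10.82, 4.69, 3.55 and 5.86 against Cre-negative skin. Of the 148 named genes that were called, 10 did not pass against wild-type skin, namely Cxcl1, Cxcl5, Ccl20, Il17f, Tslp, Dct, Rbx1, Elob, Rpl3 and Rps4x. Among them were Cxcl5 (5.38 against Cre-negative skin, 2.37 against wild-type skin, adjusted p = 0.0657) and Tslp (-4.56 and -0.63, adjusted p = 0.541).

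The same genotype comparison in skin labelled DMSO shares no libraries with the one described so far. In 3785 genes (23.6%) the genotype difference with imiquimod differed from that with DMSO by a test of the difference itself, which was positive in 2242 and negative in 1543, and 1174 were called without knockout imiquimod library 1. Of the 2866 genes called with imiquimod, 744 (26.0% of them, 15.7% of the 4752 called with DMSO) were also called with DMSO in the same direction, 410 (14.3% and 8.63%) in the opposite direction, and 1712 were not called with DMSO. Across all 16027 genes the log2 fold changes of the 2 treatments had a Pearson coefficient of 0.225 and a Spearman coefficient of -0.0133, a description over genes, which are not independent replicates. Knockout DMSO libraries were female and Cre-negative DMSO libraries 2 male and 1 female by Y-linked and Xist counts, so the difference between treatments is mixed with sex.

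Of 22 wound keratins and small proline-rich proteins, 20 had a negative difference that passed and 0 a positive one, beside 1543 and 2242 of all 16027 genes. Sprr2b was at 32.6, 29.2 and 40.5 CPM in knockout skin with DMSO and at 0.112, 0.109 and 0.291 CPM in Cre-negative skin with DMSO, so it was higher in the knockout without imiquimod and lower with it (difference -12.44 ± 1.43, adjusted p = 0.000233). Krt6a was at 17110.4, 14507 and 19515 against 127, 159.7 and 179.97 CPM with DMSO, and the difference was -7.36 ± 0.61 (adjusted p = 6.9e-05). Il33 went from 193, 98.9 and 255 against 18.6, 16.6 and 18.4 CPM with DMSO to the opposite order with imiquimod (-6.27 ± 0.56, adjusted p = 7.97e-05).

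Among genes with a positive difference, Ngp stayed below 1 CPM in all 6 DMSO libraries (difference 10.62 ± 2.44, adjusted p = 0.00892). Il1rl1 was at 2.29, 3.98 and 1.86 against 2.29, 1.75 and 4.23 CPM with DMSO, overlapping, and the difference was 6.13 ± 0.87 (adjusted p = 0.000933). Ifitm6, a membrane protein of myeloid cells, was lower in the knockout with DMSO (-2.70) and higher with imiquimod (7.18 ± 0.75), a difference of 9.88 ± 0.93 (adjusted p = 8.94e-05). Of the interferon-stimulated genes 21 of 36 had a positive difference and 0 a negative one, beside 2242 and 1543 of all 16027 genes.

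For other genes the difference between treatments did not pass the test. Krt10 was lower by 6.25 with imiquimod and by 7.53 with DMSO (difference 1.28 ± 1.11, adjusted p = 0.416), Far2 by 8.43 and 12.33 (adjusted p = 0.0617), and Il20rb by 3.04 and 2.87 (adjusted p = 0.799). Far2 was at 0, 0.0971 and 0 CPM in the knockout DMSO libraries, so its fitted 12.33 is no estimate of size. Mal was higher by 8.02 and 7.26 (adjusted p = 0.456), Mmp13 by 5.86 and 5.55 (adjusted p = 0.841) and Il1b by 4.69 and 4.68 (adjusted p = 1.0). A p that misses the threshold does not show that these differences were equal. For Il1b the ratios stood on different levels, with 68.8, 29.0 and 103 CPM in knockout DMSO skin against 2729 and 2225 CPM in knockout imiquimod skin.

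**Figure D5:**
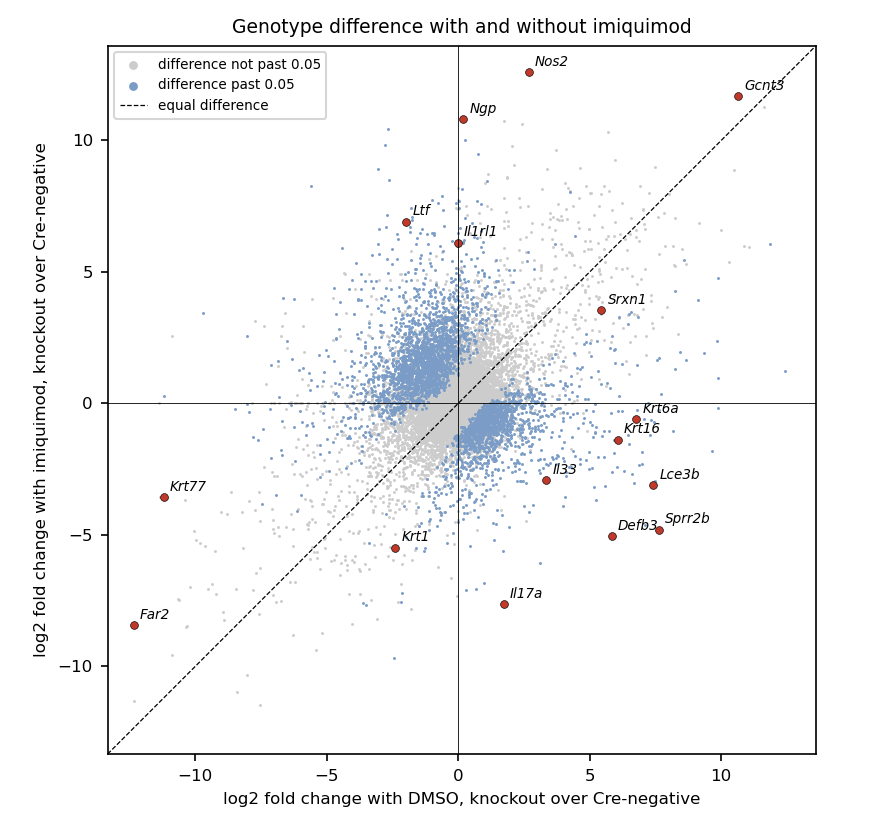
Log2 fold change of knockout over Cre-negative skin with imiquimod (y axis) against that with DMSO (x axis) for 16027 genes, with the 3785 genes whose difference passed the test in blue. Sprr2b, Lce3b, Krt6a and Krt16 lie at the right and below the dashed line of equal difference, Ngp and Il1rl1 near 0 on the x axis and high on the y axis, and Gcnt3 near the line.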

How the data were processed

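RNA of whole mouse skin was sequenced as 3' tags with the QuantSeq forward kit. The authors deposited 1 table of read counts per gene for all 14 libraries, whole numbers without normalization per the file headers, and the exon positions in it are those of GRCm39. The submitters' processing notes list 3 tools (STAR, featureCounts, DESeq2) and 2 builds (GRCm39, GRCm38) with neither role nor version. How strand and multi-mapping reads were treated was not found in the labels. Counts of overlapping genes and near-identical copies are therefore uncertain. The labels' extraction text speaks of treated cells and the design text of a NEDD8 inhibitor, while the sample labels say skin of 3 genotypes with imiquimod or DMSO. The sample labels were followed.

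From the counts, genes were kept with edgeR's filterByExpr, TMM scaling was applied, and edgeR 4.0.16 (limma 3.58.1, R 4.3.3) fitted all 14 libraries in a single quasi-likelihood model of 6 group means, so that groups of 2 share an estimate of spread with the others. Adjusted p-values are Benjamini-Hochberg over all 16027 genes, with a threshold of 0.05. The value after ± is a standard error, the absolute log2 fold change divided by the root of F. A group with 0 counts was given 3 counts over its libraries as a floor, and ratios for groups with 1 to 3 counts carry exact conditional 95% intervals. Floors and intervals cover counting error only, and the labels name no molecular identifiers.

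The comparison and the 54 gene lists (1147 genes, 1137 in the table, 1072 tested) were chosen with earlier results of these data known, so lists are described by counts and medians without a set test. Named genes were the 15 largest increases and 15 largest decreases among called genes without overlap between groups and with at least 5 CPM in the higher group, from every list the 4 members (or fewer) of lowest p, the 8 largest differences between treatments in each direction at 20 CPM or more, and a fixed set, with predicted genes left out of the ranked choices. Deviations from group means of the 3 same-numbered pairs of knockout and Cre-negative DMSO libraries correlated at 0.26, 0.10 and 0.17, and differently numbered pairs at -0.27 to 0.10. Wild-type imiquimod library 1 and knockout DMSO library 1 correlated at 0.49. These values do not show that equal numbers pair the libraries, and the labels name no shared litter or day. The fit was tested on simulated data with 200 changed genes. It recovered 1 of 67 genes changed 2-fold, 16 of 67 changed 4-fold and 52 of 66 changed 16-fold, with 7 false calls. Most differences of 4-fold or less were therefore missed in that simulation. Only 200 of 16027 genes were changed in it, against 2866 called in the data, so these rates may not carry over. Alternatives were DESeq2 1.42.0, voom with quality weights, 3 other scalings, ribosomal RNA rows left out, no filter, a minimum count of 50, only the groups compared, a replicate block, other controls and each library left out.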

Additional observations from a re-analysis of the deposited data

Results flagged for a closer look

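Each value here is the log2 fold change of knockout over Cre-negative skin with imiquimod minus the same with DMSO, tested by an interaction term in the edgeR model. It was singled out because the test of the difference itself passed an adjusted p of 0.05, as it did for 3785 genes. Sex differs among the DMSO libraries and its part in these differences was not tested. For Ddx3y, a Y-linked gene with a difference of 11.48, the 4 imiquimod libraries held 90.3 to 115 CPM and 2 of the 3 Cre-negative DMSO libraries were male while every knockout DMSO library was female.

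The difference was negative for genes of wounded epidermis: Krt6a at -7.36, Krt16 at -7.43, Krt17 at -4.49, Sprr2b at -12.44, Sprr2d at -9.27, Sprr2k at -9.23, Lce3b at -10.53 and the cystatin Csta3 at -9.29. It was also negative for Spink12 (-11.20), the lipoxygenase Alox8 (-5.38) and the suprabasal keratin Krt1 (-3.09), which did not pass with a replicate block (adjusted p = 0.0547). Among secreted defence and alarm genes it was -10.06 for Defb4, -3.96 for Defb6, -10.88 for Defb3, -5.54 for Il36a, -6.27 for Il33 and -5.80 for Il24. The Cre-negative DMSO libraries held Defb4 at 0.0559, 0 and 0.0729 CPM and Defb3 at 0, 0 and 0.510 CPM. The values for Defb4 and Defb3 are therefore no estimate of size.

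Of 27 neutrophil markers 6 had a positive and 4 a negative difference (median 0.03), beside 2242 and 1543 of all 16027 genes tested (median 0.11). Among the myeloid genes named for it, it was positive for Ngp at 10.62, Ltf at 8.89, Hdc at 2.38, Ifitm6 at 9.88, Cd14 at 3.14 and Il1rl1 at 6.13. For Wfdc21 it was 8.68. Krt77 (7.63), Sema3d (7.30) and Pyy (13.16) also had positive differences, and in each the Cre-negative DMSO libraries were far above knockout DMSO and both imiquimod groups. Pyy had 2 counts in all in the imiquimod libraries, so its fitted value is no estimate of size.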

How the results depend on the processing

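Knockout library 1 carried most weight. Leaving out 1 library at a time gave 796 to 2360 calls in the imiquimod comparison (557 to 1582 higher, 239 to 778 lower), the lowest without knockout library 1, and 1174 to 3733 calls for the difference between treatments. Voom with quality weights gave 1790 calls (1112 higher), and Cre-negative and wild-type controls together gave 4322 (2811 higher). The lower calls were 496 when scaled by total count alone, 644 with only the groups compared in the fit and 1762 against wild-type controls. Scaling by total count alone made 83.1% of calls higher, against 64.6%, and 87.7% of the calls for the difference between treatments, against 59.2%, where it moved the median of all genes from 0.11 to 0.84.

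Cre-negative against wild-type skin gave 0 calls, but 552 with DESeq2, 763 without a filter, 18 with only the groups compared, 9 with a replicate block, and 0 to 557 with 1 library left out. Against wild-type controls Adgre1 (2.77) and Defb4 (1.58) passed above 0, after values below 0 that had not passed. Of 148 named genes that were called, 38 lost the call without knockout library 1, 11 without knockout library 2, 19 without either Cre-negative library, and 0 with DESeq2. Leaving out 1 library moved 24 to 52 of these 148 values by over 1.5-fold. The cause was not tested.

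Deviations of same-numbered knockout and Cre-negative imiquimod libraries correlated at -0.16. With 2 libraries a group, crossed pairs must give the opposite value, so this cannot show whether the numbers pair them. A replicate block gave 2781 calls (1740 higher, 1041 lower), and the crossed pairing, chosen after seeing the data, 3270 (2027 and 1243). In the DMSO comparison the block gave 4692 calls against 4752, also chosen after seeing the data. For the difference between treatments it gave 3623 (2108 positive, 1515 negative), and of the named genes Krt1 lost that call. With 2 libraries a group, a gene that did not pass may still differ.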
